A study of Homo sapiens with 2 samples.

Results

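Metallothionein-high cells were studied within 2 single-cell RNA libraries of A549, an established human lung adenocarcinoma line with epithelial features. For the squashed library, A549 cells had been confined under polydimethylsiloxane (PDMS) micropillars; the control library is A549 grown in 2D without confinement. The study asks about a lasting effect of confinement on chromosomes and division. Cells of both libraries had lost a chromosome reporter, a state found in about 1 of 500 cells, and live cells without it were sorted after a 48 h recovery. The labels do not name the reporter's chromosome, and 1 batch label covers both libraries. Only barcodes with at least 1000 unique molecular identifiers (UMIs, each standing for 1 captured transcript), at least 500 genes and at most 20% of UMIs on mitochondrially encoded genes were kept. Members were chosen by their UMIs of MT2A, MT1X and MT1F: a kept cell was called metallothionein-high when these genes together gave at least 40 UMIs per 10000. By this rule 450 of 3836 kept cells were members, 71 of 1906 in the control library and 379 of 1930 in the squashed library. Every other gene was then compared with the remaining 1835 control and 1551 squashed cells of the same library. Each group is 1 library, so no test was possible, no p-value is given, and every 95% interval is exact and covers counting error only.

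Metallothioneins are small proteins rich in cysteine that bind zinc and copper and also cadmium and other toxic metals. Their genes lie in a cluster on chromosome 16, and MTF1, a transcription factor that senses zinc, acts on metal response elements in their promoters. Glucocorticoids, oxidants and several stresses are also known to raise them, and SLC30A1, which exports zinc from the cell, is a classic MTF1 target. MT2A is the form that most human cells express at the highest level, MT1X and MT1F are inducible forms of the MT1 group, and all of them lie in the same cluster.

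On GRCh38, MT2A lies at chr16:56608584-56609497, MT1A at chr16:56638666-56640087, MT1F at chr16:56657731-56660698 and MT1X at chr16:56682470-56684196, all on the plus strand. The promoters of the pair of genes that made up nearly all of the members' signal are shown, with that of SLC30A1, because these are the sequences on which metal response elements are known to act. Each is the 250 bases before the RefSeq start (GRCh38.p14), at chr16:56608334-56608583 and chr16:56682220-56682469 on the plus strand and chr1:211579162-211579411 on the minus strand. Capitals mark the core of the metal response element, searched as TGCACNC and TGCGCNC on both strands.
MT2A: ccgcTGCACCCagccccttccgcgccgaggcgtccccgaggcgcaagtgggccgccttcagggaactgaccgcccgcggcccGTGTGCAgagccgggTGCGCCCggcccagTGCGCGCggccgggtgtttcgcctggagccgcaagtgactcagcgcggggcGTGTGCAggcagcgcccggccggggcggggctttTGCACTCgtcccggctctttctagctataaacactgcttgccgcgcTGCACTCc
MT1X: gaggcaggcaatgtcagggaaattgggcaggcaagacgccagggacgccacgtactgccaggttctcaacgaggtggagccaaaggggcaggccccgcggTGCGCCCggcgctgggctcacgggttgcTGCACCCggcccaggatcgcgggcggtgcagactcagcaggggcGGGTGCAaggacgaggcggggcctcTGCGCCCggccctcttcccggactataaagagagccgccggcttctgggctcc
SLC30A1: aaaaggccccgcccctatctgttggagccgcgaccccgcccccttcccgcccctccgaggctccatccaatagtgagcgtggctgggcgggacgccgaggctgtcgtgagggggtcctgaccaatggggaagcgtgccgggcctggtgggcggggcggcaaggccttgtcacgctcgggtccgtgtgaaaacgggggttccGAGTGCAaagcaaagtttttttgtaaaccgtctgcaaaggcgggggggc
The MT2A promoter held 7 matches, 5 of them on the strand of the gene, the MT1X promoter held 4 and the SLC30A1 promoter held 1. Among all 35116 promoters of this length in the table, 24.8% held at least 1 match, 1.58% held at least 3 and 0.12% held at least 5. A match describes these letters and is not evidence that a factor was bound.

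Metallothionein-high cells made up 3.73% of kept control cells (95% exact Clopper-Pearson interval 2.92 to 4.68) and 19.6% of kept squashed cells (17.9 to 21.5). The 71 control members held 14.2% of all UMIs of the rule genes in their library, and the 379 squashed members held 53.3%. Over all kept cells the 3 genes gave 10.5 UMIs per 10000 in the control library and 28.2 in the squashed library. With every cell thinned to 2000 UMIs, a common depth, the shares were 4.99% (91 of 1825 cells) and 22.1% (394 of 1782). The share was highest in shallow control cells, 9.80% of those with 1000 to 5000 UMIs and 1.26% of those with 20000 or more. In the squashed library it was 20.9% and 11.7% in the same depth ranges. The squashed share was the higher one in these and in the 2 ranges between them, where it was 24.2% and 18.7% against 4.88% and 2.65%.

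The members were the upper end of a continuous range and not a separate peak. Members reached a median of 49.2 UMIs of the rule genes per 10000 in the control library (lowest 40.3, highest 183) and 60.3 in the squashed library (lowest 40, highest 1049). Remaining cells had medians of 7.62 and 14.8. Just outside the threshold, at 30 to 40 per 10000, lay 60 control and 190 squashed cells with medians of 33.1 and 34.0. Just inside it, at 40 to 50, lay 37 control and 121 squashed cells with medians of 44.4 and 44.1. The middle of the range also differed: 617 control cells but 179 squashed cells lay under 5 per 10000.

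**Figure D1:**
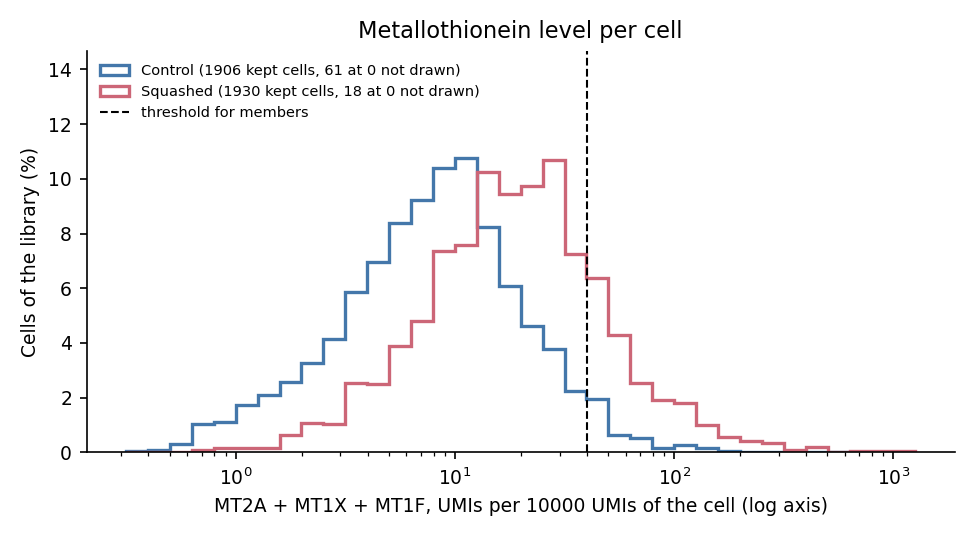
Distribution of the level of MT2A, MT1X and MT1F together (UMIs per 10000, log scale) over kept cells of each library, with the threshold of 40 per 10000 as a dashed line; 61 control and 18 squashed cells at 0 are not drawn. Both libraries run through the threshold without a gap, and the squashed library lies further to the right, with 379 cells past the line against 71.

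MT2A carried most of the signal. It made up 93.1% of the rule genes' UMIs in control members and 88.7% in squashed members, MT1X 6.70% and 10.9%, and MT1F 0.195% and 0.397%. MT2A had UMIs in all members and a level of 5552 UMIs per 1000000 (CPM) in control members against 840 in remaining control cells, and of 7957 in squashed members against 1446. MT1X stood at 399 CPM against 76.7 in the control library and at 980 against 124 in the squashed library. MT1F, the faintest of the 3, had UMIs in 7 of 71 control members and in 83 of 379 squashed members. These ratios follow from the rule and are given as a description.

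The MT1X share was not constant along the range. In the squashed library MT1X made up 10.9% of the rule genes' UMIs in cells under 5 per 10000, 5.78% in cells at 80 to 160 and 21.2% in the 35 cells at 160 or more, with 2472 MT1X UMIs. In the control library it made up 9.95% and 6.27% in the same ranges, and there was only 1 cell at 160 or more, at 6.25%. The highest squashed cell gave 10.5% of its 9481 UMIs to the rule genes, 553 to MT2A and 442 to MT1X. The next had 688 MT2A and 264 MT1X UMIs of 10599, and the third had 664 and 521 of 17023. The highest control cell had 224 MT2A UMIs and 15 MT1X UMIs of 13119. The 3 highest squashed cells thus held far more MT1X beside MT2A than the highest control cell, which had a much lower level of the rule genes. This did not hold for every high squashed cell: the cell at rank 7 had 171 MT2A and 3 MT1X UMIs. In no member of either library did MT1X exceed MT2A.

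**Figure D2:**
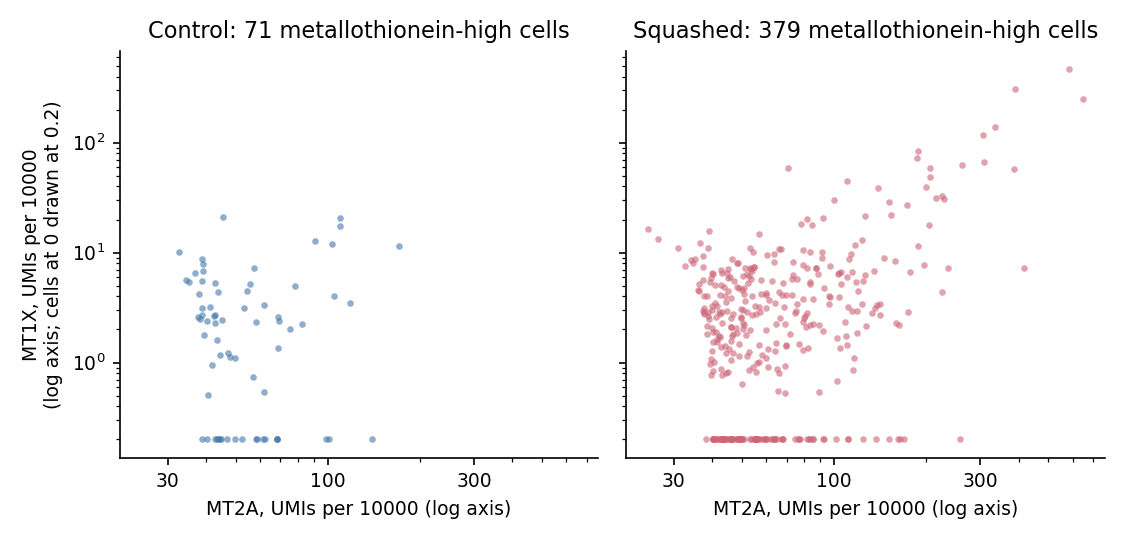
MT1X against MT2A in each member (UMIs per 10000, log scales), control members in the left panel and squashed members in the right; cells without an MT1X UMI are drawn along the bottom. Most members lie far below equal levels, and a few squashed cells near the top reach MT1X levels close to those of MT2A.

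Outside the rule, MT1A was the only metallothionein with enough UMIs to compare. MT1A stood at 87.1 CPM in squashed members (340 UMIs) against 26.8 in remaining cells, a log2 ratio of 1.70 (1.5 to 1.90), and at 31.9 CPM in control members (22 UMIs) against 10.9, a log2 ratio of 1.58 (0.85 to 2.17). It had UMIs in 33.2% of squashed members and 21.3% of remaining cells, and in 22.5% and 13.6% of control cells; the files hold 1 cell line, so no cell type that lacks the gene sets a background for these shares. Without the cell that held the most MT1A, the log2 ratios were 1.47 and 1.40. MT1B had 51 UMIs in squashed members, of which 78.4% came from 1 cell, and no UMI in control members. MT1E, MT1M, MT1H, MT1HL1 and MT4 had no UMIs, MT1G had 1 UMI, in a remaining squashed cell, and MT3 had 5 in remaining squashed cells and 1 in a remaining control cell. Because the metallothionein genes are close copies, reads could be split between them and the values for MT1A and MT1B are uncertain.

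The genes that move zinc were low or lay close to the remaining cells. Zinc exporters and MTF1 were too low to describe as a list. Of its 10 genes, 0 reached 20 CPM in either class of the squashed library and 1 did in the control library. SLC30A1 had 28 UMIs in squashed members, 7.17 CPM against 5.77 in remaining cells (log2 ratio 0.33, -0.34 to 0.92), and 2 UMIs in control members. A single squashed member held 21.4% of the 28 UMIs, and without it the squashed ratio was -0.002. MTF1 stood at 3.84 against 5.25 CPM in the squashed library and at 10.2 against 5.15 in the control library, both with intervals that include 0. The zinc exporters and MTF1 summed to 47.6 against 54.7 CPM in squashed members and to 52.3 against 60.7 in control members. All 5 measured importers of zinc lay within 1.5-fold in both libraries, as did 3706 of 3936 measured genes in the squashed and 3483 of 4446 in the control library. Of the genes that handle copper, 0 of 7 measured in the squashed and 1 of 8 in the control library were at least 1.5-fold higher and 0 lower, with median log2 ratios of 0.14 and 0.07. Over all measured genes 1.42% were as high in squashed and 5.8% in control members. ATOX1, which hands copper to the transport ATPases, stood at 601 against 462 CPM in the squashed library (log2 ratio 0.38) and at 427 against 258 in the control library (0.73), while COX17, which carries copper to cytochrome oxidase, had ratios of 0.27 and 0.34. CCS, the copper chaperone of superoxide dismutase, had 0.14 and -0.44, both with intervals that include 0. SLC30A1 levels differed along the squashed range, from 5.4 CPM under 5 per 10000 to 19.0 in the 35 cells at 160 or more, from few UMIs that a single cell can shift.

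Members were shallower than the remaining cells. Their median depth was 8090 UMIs against 12643 in the control library and 7780 against 9751 in the squashed library. Members had lower mitochondrial shares, with medians of 4.13% against 5.81% and 5.44% against 7.66%. They also had slightly more genes per 100 UMIs, 22.5 against 21.0 and 21.4 against 19.7. Called doublets were 1 of 71 members and 15 of 1835 remaining cells in the control library, and 7 of 379 members and 8 of 1551 remaining cells in the squashed library; without them members made up 3.70% and 19.4% of cells. How far depth or RNA quality plays a part in the gene results was not tested, and ratios with the remaining cells weighted to the members' depth are given beside several of them.

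Cells were compared by phase at a common depth of 2000 UMIs. In the squashed library 62.0% of 350 members were called G2M (56.7 to 67.1) against 43.4% of 1432 remaining cells, and 32.9% against 52.5% were called G1. In the control library 62.5% of 64 members were called G2M (49.5 to 74.3) against 58.3% of 1761 remaining cells, a gap that counting error covers. The share of members was accordingly 25.9% of squashed G2M cells and 13.3% of squashed G1 cells, against 3.75% and 2.87% in the control library. Shallower cells, 7 and 29 members and 74 and 119 remaining cells, were left out of these calls.

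Few genes lay far from the remaining cells in the squashed library, and more did in the smaller control group. Of 3936 genes with at least 20 CPM in either class, metallothioneins left out, 11 were at least 2-fold higher in squashed members, which is 0.279%, and 27 at least 2-fold lower, 0.686%. Of 4446 such genes in the control library, 51 were higher (1.15%) and 201 lower (4.52%). The control figures rest on 688528 UMIs and the squashed figures on 3904076, and the deepest control member held 7.69% of the former. The squashed and control libraries share no cells among their members, and across 3813 genes measured in both the log2 ratios had a Pearson r of 0.47 and a Spearman's rho of 0.43, over genes, which are not independent. All 5 genes 2-fold higher in squashed members that were measured in both libraries were also above 0 in control members, and 24 of the 25 that were lower were also below 0, beside 58.1% of the 3813 genes that were below 0 in control members. Of the 11, the surface ectonucleotidase NT5E had log2 ratios of 1.51 in squashed and 0.37 in control members, TMEM158 1.49 and 1.34, and TNFRSF12A, the receptor of the cytokine TWEAK, 1.06 and 0.59. The control values of NT5E and TMEM158 rest on 8 and 7 UMIs in members, under 20 CPM, and their intervals, -0.95 to 1.28 and -0.10 to 2.33, include 0. C15orf48 had 1.70 in squashed members, but 0.28 without the 1 cell that held 63.3% of its UMIs. These 4 were named after their values were seen.

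**Figure D3:**
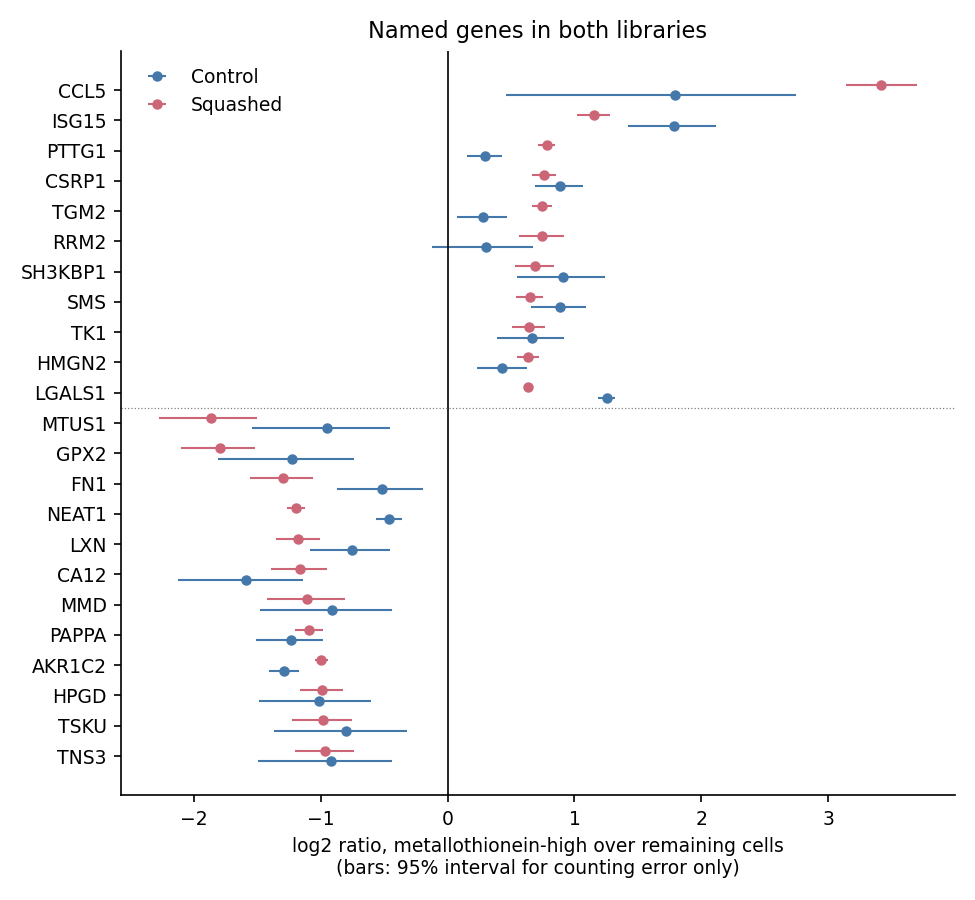
Log2 ratio of members over remaining cells of the same library for 11 of the 12 highest and the 12 lowest named genes in the squashed library, with 95% intervals for counting error; control and squashed members are drawn separately. The 11 highest genes drawn are also above 0 in control members and all 12 lowest are also below 0. The control interval of RRM2 includes 0. The control ratio of CCL5 rests on 8 UMIs in 1 cell and is -2.29 without that cell.

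Some of the genes listed as mesenchymal, among them several that bind actin, were at least 1.5-fold higher in members. Of the 15 listed, 11 were measured in the squashed library, of which 4 were past this fold, 1 was as far lower and 6 lay between, with a median log2 ratio of 0.39. In the control library 5 of 10 were higher, 0 lower and 5 between, with a median of 0.62. Over all measured genes 1.42% were at least 1.5-fold higher and 4.42% lower in squashed members, with a median of 0.01, and 5.8% and 15.9% in control members, with a median of -0.08. VIM, the intermediate filament gene vimentin, had log2 ratios of 0.62 in squashed and 0.74 in control members, and the tropomyosins TPM1 and TPM2 had 0.61 and 0.37 in squashed and 0.82 and 0.98 in control members. TAGLN, which encodes transgelin, an actin-binding protein, had 2.12 in squashed members, where 42 of 379 had a UMI, and 4.70 in control members, where 11 of 71 did and 1 cell held 36.8% of the UMIs. FN1, fibronectin, was the exception, at -1.30 in squashed and -0.51 in control members, the latter -1.23 without its top cell and -0.24 after weighting by depth. Epithelial genes went both ways: 0 of 6 measured were at least 1.5-fold higher and 1 lower in squashed members, and 2 of 7 higher and 1 lower in control members, with medians of -0.21 and -0.04. Their summed level was higher in members, 5526 against 4884 CPM in the squashed and 15174 against 10814 in the control library. Most of it came from the keratin KRT81, at 3445 against 2622 and 11955 against 7807 CPM. The rest of the list summed lower in squashed members and higher in control members. KRT7, a keratin of simple epithelia, had 0.42 and 0.96, and JUP, the junction protein plakoglobin, -0.84 and -1.19.

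Among the named genes outside that list, LGALS1, which encodes galectin-1, stood at 2415 CPM in squashed members against 1556 (log2 ratio 0.63, 0.60 to 0.67) and at 2716 against 1139 in control members (log2 ratio 1.25, 1.19 to 1.32), with medians over cells of 23.1 against 15.4 and 28.2 against 11.1 UMIs per 10000. CSRP1, a LIM protein tied to the actin cytoskeleton, had ratios of 0.76 in squashed and 0.88 in control members, TGM2, a cross-linking enzyme, 0.74 and 0.28, and SH3KBP1, an adaptor of endocytosis, 0.69 and 0.91. SMS, spermine synthase, had 0.65 and 0.88. Each of these lay above 0 in both libraries, and LGALS1 was the one with the most UMIs behind it.

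**Figure D4:**
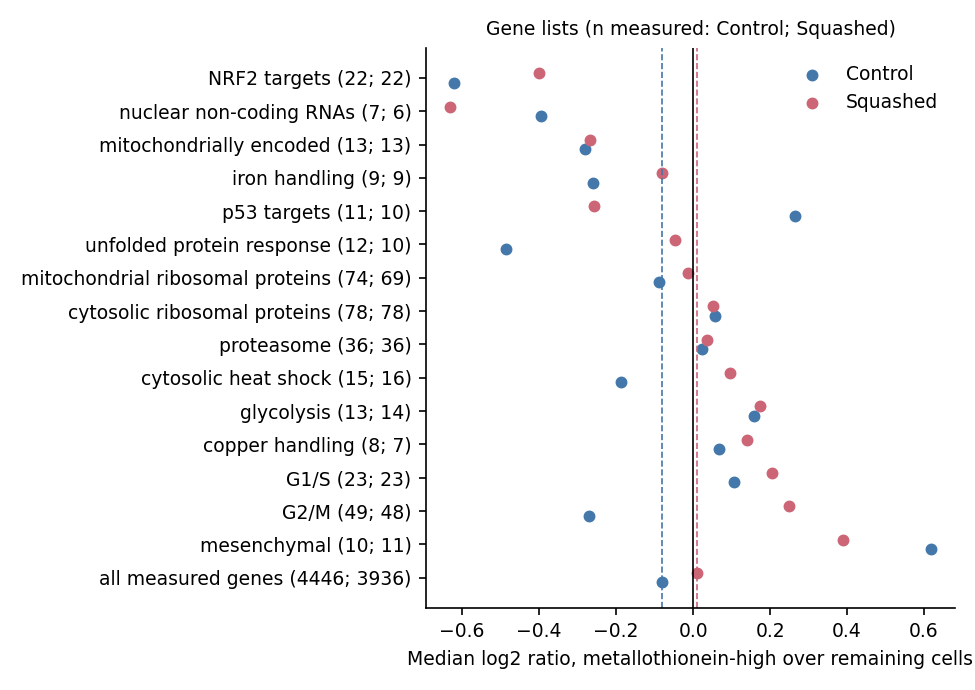
Median log2 ratio of members over remaining cells for each gene list, with the number measured in control and in squashed beside its name; each colour is a library, and the dashed lines are the medians of all measured genes. The median of mesenchymal genes lies above 0 and those of NRF2 targets and nuclear non-coding RNAs lie below 0 in both libraries, while that of G2/M genes lies above 0 in the squashed and below 0 in the control library.

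Genes of the NRF2 response had medians below those of all measured genes. NRF2 is the transcription factor that drives antioxidant and xenobiotic enzymes, and it is active in A549. Of 22 measured targets, 8 were at least 1.5-fold lower in squashed members and 12 in control members, and 0 were higher in either. Over all measured genes 4.42% were as low in squashed and 15.9% in control members. The targets had median log2 ratios of -0.40 and -0.62, and weighting the remaining cells to the members' depth gave -0.34 and -0.45. AKR1C2, an aldo-keto reductase, stood at 900 CPM in squashed members against 1794 (log2 ratio -1.0) and at 844 against 2064 in control members (-1.29), with medians over cells of 7.00 against 12.3 and 5.07 against 16.3 UMIs per 10000. GCLC and GCLM, the subunits of the enzyme that starts glutathione synthesis, had -0.86 and -0.79 in squashed and -1.60 and -0.66 in control members. After that weighting they had -0.62 and -0.53 in squashed and -1.36 and -0.38 in control members. Among cells under the members' median depth they had 0.70 and 0.09 in the squashed and 0.07 and -0.25 in the control library. The control value of GCLC rests on 9 UMIs in members. SLC7A11, the cystine importer, had -0.73 and -0.75, or -0.55 and -0.44 after that weighting. NQO1 lay near 0, at 0.12 and 0.09. GPX2, a glutathione peroxidase, was among the lowest of all genes, at -1.80 and -1.23.

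Several other genes lay low in both libraries, some of them nuclear non-coding RNAs. Of the listed nuclear RNAs, 3 of 6 were at least 1.5-fold lower in squashed members and 2 of 7 in control members, and 0 were higher, with medians of -0.63 and -0.40 (-0.35 and -0.11 after weighting by depth). Over all measured genes 4.42% and 15.9% were as low, and among those with transcripts over 3000 nt, 110 of 1691 and 479 of 1948, so the control count is close to that of long transcripts. MTUS1, which encodes a microtubule-associated protein, had -1.87 in squashed and -0.95 in control members, PAPPA, a metalloproteinase that cleaves IGF-binding proteins, -1.09 and -1.24, CA12, a carbonic anhydrase, -1.16 and -1.59, and HPGD, which inactivates prostaglandins, -0.99 and -1.01. NEAT1, a non-coding RNA of nuclear paraspeckles, stood at 446 CPM against 1023 in squashed members, and its level went from 1686 CPM in squashed cells under 5 per 10000 to 65.1 in those at 160 or more. Its log2 ratio was -1.20 in squashed and -0.46 in control members, -0.89 and -0.11 after weighting by depth. MALAT1, another nuclear RNA, had -0.94 and -0.72, or -0.66 and -0.49 after that weighting. A single control member held 40.3% of the control members' NEAT1 UMIs, and without it the control ratio was -1.16.

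Most cell cycle genes, the lists from which the phases were called, lay within 1.5-fold of the remaining cells in squashed members. Of 48 measured G2/M genes, 46 lay within it and 2 were higher, or 3 of 23 for the G1/S genes, beside 1.42% of all measured genes. The G2/M genes had a median log2 ratio of 0.25, or 0.35 after weighting by depth, and a summed level of 7325 CPM against 5931. In control members the median was -0.27 with 1 of 49 higher and 12 lower, beside 5.8% and 15.9% of all genes, so the libraries differed in sign, which was not tested. The G1/S genes had a median of 0.20 in squashed members, with 0 lower. In control members 4 of 23 were higher and 1 lower (median 0.11), but without the deepest member 4 were higher and 3 lower and the median was -0.20. RRM2, a ribonucleotide reductase subunit in the G1/S list, had 0.74 in squashed and 0.30 in control members. Outside these lists, PTTG1, securin, had 0.78 in squashed and 0.29 in control members (0.74 and 0.11 after weighting by depth). TK1, thymidine kinase, had 0.64 and 0.67, and HMGN2, a nucleosome-binding protein, 0.64 and 0.43, and both also lie outside the lists.

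CCL5 and the interferon genes rested on a few cells. CCL5, a chemokine, had the highest squashed ratio, 3.42, but 35.4% of its UMIs came from 1 of the 10 member cells that had any; without that cell it was 2.79. All 8 CCL5 UMIs of control members lay in 1 cell. ISG15, an interferon-induced ubiquitin-like protein, had 1.15 in squashed members and 0.66 without its top cell, and 1.79 and 0.97 in control members. For CCL5, ISG15, IFIT2, IFIT3 and OASL together, 3 squashed members held 59.3% of the UMIs. Without those cells the members' level was 147 CPM beside 92.7 in remaining cells without their own 3 top cells. In the control library 3 members held 81.0%, and the same removal left 28.5 CPM in members beside 34.5. Any of these UMIs occurred in 31.4% of squashed members and 39.4% of remaining squashed cells, and in 25.4% and 25.8% of control cells. Cells high in these genes also occurred outside the members: 7 of 379 squashed members and 17 of 1551 remaining squashed cells held at least 20 of these UMIs.

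Most other programmes lay close to the remaining cells in squashed members. None of 16 measured heat-shock genes, 10 genes of the unfolded protein response, 14 glycolysis genes, 9 iron genes, 78 cytosolic ribosomal proteins or 36 proteasome genes was past 1.5-fold there. Among all 3936 measured genes 3706 also lay within this fold, so the shorter lists are close to that background. In control members 15.9% of all measured genes were at least 1.5-fold lower. There this held for 5 of 12 genes of the unfolded protein response, 3 of 9 iron genes, 2 of 15 heat-shock genes, 2 of 36 proteasome genes and 1 of 13 glycolysis genes. In the same members 1 glycolysis gene and 1 of 78 ribosomal proteins were as far higher, beside 5.8% of all measured genes. The mitochondrially encoded genes had median log2 ratios of -0.27 in squashed and -0.28 in control members, or -0.16 and -0.11 after weighting by depth. Glucocorticoid targets were too low to describe, with 2 measured in the squashed and 1 in the control library.

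The label of the line held in part. The keratins KRT8, KRT18, KRT7 and KRT81 were present in members. KRT7, a marker set for the line beforehand, stood at 481 against 361 CPM in squashed and 662 against 342 in control members. KRT81, which was not such a marker, stood at 3445 against 2622 and 11955 against 7807 CPM. EPCAM had no UMI in members and CDH1 was at 2.31 and 2.90 CPM. Both are given for members only, so they do not set members apart from the remaining cells. Markers of other cell types were scarce. None of 9 fibroblast genes reached 20 CPM in either library, and their sum was 6.66 CPM in squashed members against 6.69 and 8.71 in control members against 8.06, with 4 and 7 of the 9 at 0 in members. The 8 endothelial genes summed to 10.5 against 10.2 and 40.7 against 44.9 CPM, with 7 at 0 in members of each library, PECAM1 and VWF among them. The 10 immune genes summed to 21.5 against 23.7 and 26.1 against 15.5 CPM, with PTPRC, the pan-leukocyte gene, at 0 and nearly all of the rest from CD68, at 20.7 against 21.98 CPM in squashed and 23.2 against 13.2 in control members. The 11 alveolar genes summed to 2.82 against 3.71 and 2.90 against 4.25 CPM.

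Genes on chromosome 16, where the metallothioneins lie, were higher in members even with the metallothionein genes and cell cycle genes left out. Over genes at 10 to 500 CPM the summed log2 ratio of chromosome 16 was 0.21 in control members (0.17 to 0.24; 242 genes) and 0.17 in squashed members (0.16 to 0.19; 211 genes), the highest of 23 chromosomes in both libraries. The other 22 ranged from -0.14 to 0.13 in the control and from -0.07 to 0.08 in the squashed library. In the control library 169 of the 242 genes lay above the median of all genes, and in the squashed library 162 of 211. The value was 0.18 in both libraries after weighting by depth, and within G1 and G2M calls it was 0.11 and 0.13 in squashed and 0.11 and 0.31 in control members. Both sides of the longest gene-free stretch of the chromosome contributed, with 0.19 before it and 0.23 after it in control members and 0.16 and 0.19 in squashed members. Members were also more frequent among cells with a higher share of their UMIs on chromosome 16. Among squashed cells with at least 10000 UMIs, members made up 8.61% of those below 0.85 of the median share, 11.2% of those from 0.85 to 1.1 and 26.0% of those at 1.1 or more; in the control library the shares were 1.38%, 1.27% and 3.81%, on 3, 7 and 16 members. The median share relative to all cells was 1.22 in 26 control members against 1.00 in remaining cells and 1.21 in 145 squashed members against 0.98. Copies of chromosome 16 were not measured, and their part in the metallothionein level was not tested.

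**Figure D5:**
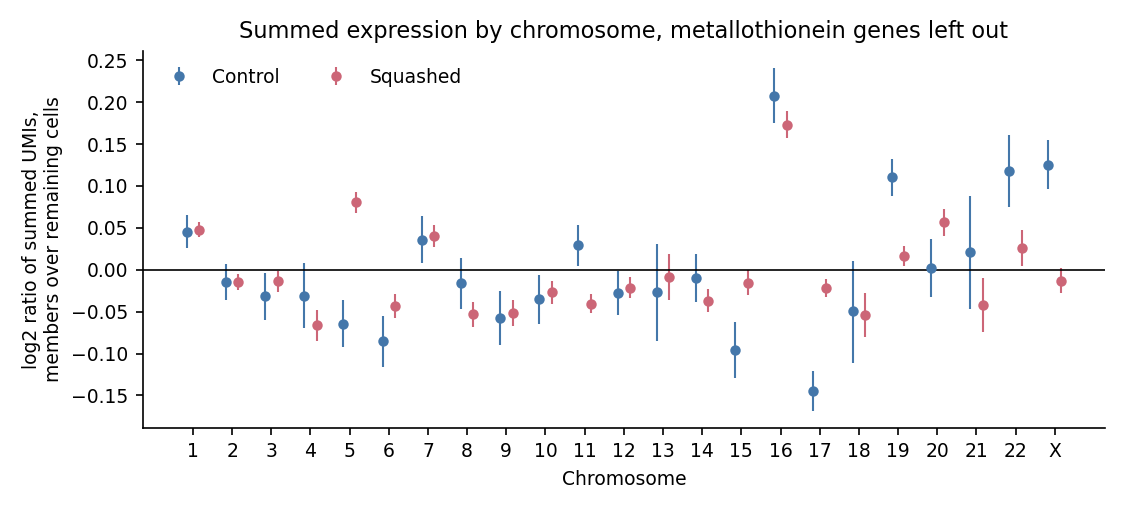
Summed log2 ratio of members over remaining cells for each chromosome, without metallothionein and cell cycle genes, for genes at 10 to 500 CPM; error bars are 95% intervals for counting error. Chromosome 16 is the highest in both libraries.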

How the data were processed

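The data are UMI counts per gene and barcode of 2 libraries, deposited by the authors as unnormalized whole numbers, per the file headers. Libraries used a Chromium 3.1 kit and a NovaSeq 6000 and were counted on GRCh38 with Cell Ranger, which the file headers give as 4.0.0 and the design text in the labels as 5.0.1. The labels do not name separate cultures, and each group is 1 library. Depth was 30565366 UMIs over 2574 barcodes (control) and 26829300 UMIs over 3132 barcodes (squashed); 4 barcode sequences occurred in both, 2 among kept cells and 0 among members.

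UMIs were summed over members and over remaining cells of the same library and scaled to CPM, and log2 ratios were computed with 0.5 added to each count. A gene was measured at 20 CPM or more in either class, and called means past 2-fold, or 1.5-fold for lists. Doublets were called with Scrublet in scanpy 1.11.5 and kept. Phases came from scanpy on cells thinned to 2000 UMIs. Gene positions are from GENCODE 44. The tools were scipy 1.17.1, numpy 2.4.6 and pandas 2.3.3 in Python 3.11.15, R 4.3.3 with edgeR 4.0.16 for TMM factors only, and matplotlib 3.10.9, and the ratio was tested on simulated data. The members and gene lists were chosen with earlier results of these data known. Named genes are the metallothioneins, zinc exporters and MTF1, the 12 highest and 12 lowest squashed ratios among genes at 50 CPM or more whose sign was the same in shallower and deeper cells, and up to 4 members of each list; 1 of them is not reported here by name and is left out of the plot of named genes, and counts and medians include it. Alternatives were other thresholds, depth weighting, equal weighting of cells, TMM scaling, filters on low genes, depth and mitochondrial share, removal of doublets and single phases; removal of the highest and of the deepest members was chosen after seeing the data.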

Additional observations from a re-analysis of the deposited data

Results flagged for a closer look

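SLC16A1, a lactate transporter, differed in sign between the libraries: its log2 ratio of members over remaining cells was 0.57 in the squashed library and -1.18 in the control library, where members held 6 UMIs. GDF15, a stress-induced cytokine, was at -1.35 in the squashed library and 0.79 in the control library; 1 cell held 61.3% of the control UMIs, and without it the control ratio was -0.51. The histone gene HIST1H4C was at -0.67 and 0.27 (-0.30 and 0.69 after weighting by depth), and 1 control cell held 65% of its control UMIs, without which the ratio was -1.14. HIST1H1C was at -0.34 and 0.62, and 0.21 in the control library without its top cell. None of these differences between the libraries was tested.

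Barcodes left out by the cell filter also held cells at or above the threshold, 13 of 668 in the control library and 82 of 1202 in the squashed library. Of these, 12 and 66 had under 500 genes. Among barcodes over 20% mitochondrial, 0 of 270 control barcodes passed, which allows up to 1.36%, and 13 of 519 squashed barcodes did. Summed over the barcodes under 500 genes, the rule genes gave 5.93 UMIs per 10000 in the control and 16.7 in the squashed library.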

How the results depend on the processing

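No paired analysis was possible because each group is 1 library. The share of metallothionein-high cells, 3.73% in the control and 19.6% in the squashed library, was 14.3% and 47.4% at a threshold of 20 per 10000, 0.630% and 6.42% at 80 and 4.99% and 22.1% after thinning, and the squashed share was 24.2% with at most 10% mitochondrial UMIs; filters on depth and doublets kept it within its interval, as did the mitochondrial filter in the control library. The squashed share was the higher one under each of these.

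Counts of genes past 2-fold moved with the threshold and with the number of cells. In control members the 51 higher and 201 lower genes became 3 and 2 at a threshold of 20, 747 and 1198 at 80, 138 and 370 with cells weighted equally, 16 and 46 at 50 CPM and 336 and 844 at 5 CPM. They became 1214 and 646 within S calls and 121 and 718 within G2M calls; the higher genes became 109 with at most 10% mitochondrial UMIs and 507 within G1 calls, and the lower genes 115 with depth weighting. In squashed members the 11 higher and 27 lower genes became 2 and 8 at a threshold of 20, 38 and 185 at 80, 3 and 8 at 50 CPM, 31 and 147 at 5 CPM, 7 and 10 with at most 10% mitochondrial UMIs, 65 and 114 within G1 calls and 214 and 402 within S calls. The lower genes became 14 with depth weighting and 17 within G2M calls. Several of these settings leave fewer cells; the cause of the shifts was not tested. Without the deepest member the lower genes were 286 in control and 36 in squashed members, and the higher ones 51 and 12. Of 1610 values for named genes in each library, 189 control and 87 squashed values had another sign than the reported ratio, and 326 and 408 lay outside its counting interval without being counted among the following. Among genes at least 2-fold apart at 20 CPM or more, with an interval that excludes 0, 5 control and 3 squashed values changed sign. In control members these were ISG15 within S calls (-0.081), SLC16A1 (0.062), KCNQ1OT1 (0.24) and IGFBP3 (0.079) at a threshold of 20, and KCNQ1OT1 (0.39) with at most 10% mitochondrial UMIs. In squashed members they were CCL5 (-0.24) and ISG15 (-0.52) within S calls and IFIT2 (-0.15) with at most 10% mitochondrial UMIs.

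Depth limits genes under about 20 CPM in the 71 control members, where a count of 0 allows up to 4.36 CPM.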

Other observations

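Short transcripts lay slightly higher in members, though in the squashed library not after weighting by depth. Measured genes with transcripts up to 500 nt, metallothioneins left out, had a median log2 ratio of 0.29 over 52 genes in control members and 0.10 over 54 genes in squashed members, and those over 3000 nt had -0.26 and -0.06. After weighting the remaining cells to the members' depth, the medians over 3000 nt were -0.13 and 0.04. Those up to 500 nt were then 0.19 in control and 0.057 in squashed members, beside -0.04 and 0.055 over all measured genes. The p53 targets had a median of -0.26 in squashed members, with 2 of 10 at least 1.5-fold lower, beside 4.42% of all measured genes. In control members their median was 0.26, with 2 of 11 at least 1.5-fold higher, beside 5.8%. GDF15 is counted in both libraries, and its control ratio was -0.51 without the 1 cell that held 61.3% of its UMIs. After weighting by depth the medians were -0.13 and 0.37, and this difference between the libraries was not tested. PMAIP1, a p53 target that promotes apoptosis, is not in that list and was counted among the genes of apoptosis control. It had 0.79 in squashed and 0.59 in control members, and the control interval included 0.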
